A study of Sus scrofa with 6 samples.

Results

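The enzymes described here are the cyclic nucleotide phosphodiesterases, led by PDE1B, in cells cultured from the ear cartilage of a pig. They are 10 gene models of the 19670 listed: PDE1B (ENSSSCG00000000297), a second PDE1B model (ENSSSCG00000029451), PDE1A, PDE1C, PDE3A, PDE4B, PDE4D, PDE5A, PDE7B and PDE8A. 9 were found by the symbol of their identifier and the second PDE1B model by its protein name in the deposited annotation. Both PDE1B models were selected on their difference between the groups described below, the others as further phosphodiesterases with that comparison known. The tested libraries came from cells treated for 24 h with GW0742, which activates the fatty acid receptor PPARD, and the controls from cells given DMSO for the same time, with 3 libraries per group. The dose is not stated in the labels. All cells, in both groups, were freed by enzymes from the ears of 1 pig of 4 months, a Duroc × (Landrace × Large White) hybrid with wild-type PPARD. The labels name no separate cultures, so the spread behind each p-value is that between these libraries and may be technical. The libraries held between 13133894 and 16913742 estimated reads, and 14146 models (71.9%) were deep enough to test, all 10 phosphodiesterase models among them.

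Phosphodiesterases break down cyclic AMP and cyclic GMP and so end the signals that adenylyl and guanylyl cyclases start. Enzymes of the PDE1 group are switched on by calcium-bound calmodulin and cut both nucleotides, those of PDE4, PDE7 and PDE8 cut cyclic AMP, and PDE5A cuts cyclic GMP. In growth cartilage, cyclic AMP acts below the receptor of parathyroid hormone-related protein, and cyclic GMP below the receptor of C-type natriuretic peptide.

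Per length of gene model, PDE1C was the most abundant member and PDE1B among the least abundant in DMSO cells. Levels between genes are compared here as RPKM, the authors' reads scaled by model length and library size. PDE1C averaged 51.0 ± 2.04 RPKM in GW0742 cells and 58.0 ± 0.773 RPKM in DMSO cells (SD, n = 3 each, as for all means below). PDE8A averaged 39.2 ± 1.25 RPKM in GW0742 cells and 36.3 ± 1.14 RPKM in DMSO cells, and PDE5A 18.7 ± 0.664 RPKM in GW0742 cells and 17.6 ± 1.26 RPKM in DMSO cells. The order PDE1C, PDE8A, PDE5A was the same in both groups, with no overlap between the libraries of neighbouring genes.

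The other members lay under 6 RPKM in every library. PDE4B averaged 2.90 ± 0.933 RPKM in GW0742 cells and 4.14 ± 0.282 RPKM in DMSO cells. PDE3A averaged 1.90 ± 0.331 and PDE4D 1.45 ± 0.261 RPKM in GW0742 cells, against 2.56 ± 0.352 RPKM for PDE3A and 2.10 ± 0.188 RPKM for PDE4D in DMSO cells. PDE7B was last in both groups, at 0.294 ± 0.111 RPKM in GW0742 cells and 0.241 ± 0.0206 RPKM in DMSO cells. In DMSO cells PDE1A (1.5 ± 0.135 RPKM), the second PDE1B model (0.978 ± 0.430 RPKM) and PDE1B (0.896 ± 0.258 RPKM) followed each other just above PDE7B. Of these, PDE1A overlapped the second PDE1B model, which overlapped PDE1B. In GW0742 cells PDE1B took place 4 at 4.82 ± 0.770 RPKM, apart from both neighbours, and its second model place 5 at 3.62 ± 0.0168 RPKM, within the range of PDE4B. PDE1B thus held place 4 of 10 in GW0742 cells and place 9 in DMSO cells.

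**Figure D1:**
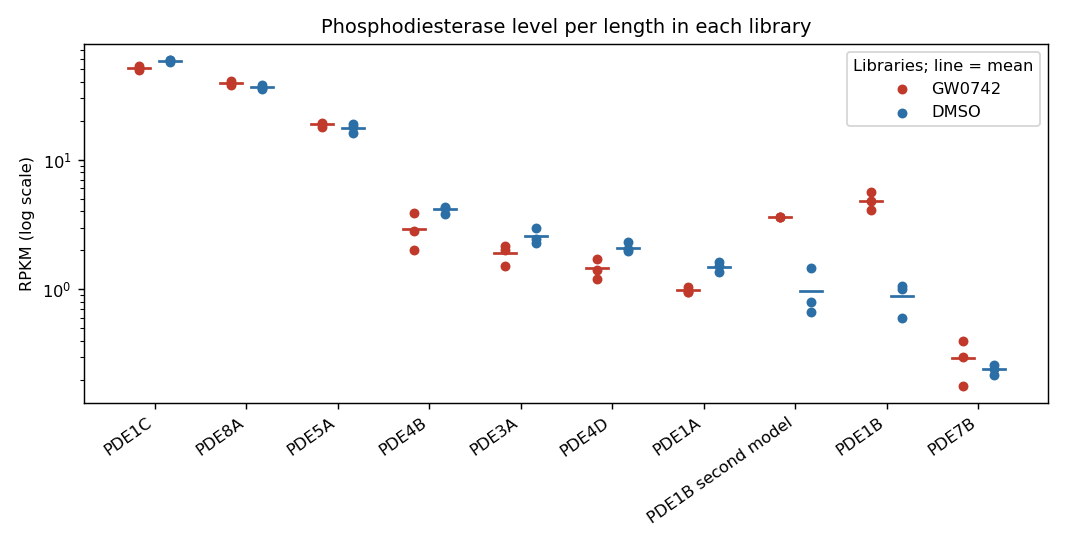
RPKM (log axis) of the 10 phosphodiesterase models, with 1 point per library and a line at the mean of the 3 libraries of GW0742 (red, left) and DMSO (blue, right). Both PDE1B models stand higher in GW0742 libraries, while PDE1C, PDE8A and PDE5A keep the first 3 places in both groups.

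PDE1B is a calmodulin-dependent enzyme known best from the striatum of the brain, where it helps set the response to dopamine. It had 15.5, 17.6 and 13.3 CPM in GW0742 replicates 1, 2 and 3, against 3.44, 2.03 and 3.29 CPM in DMSO replicates 1, 2 and 3, where CPM is the read count scaled to library size by the TMM method. Every GW0742 library lay above every DMSO library. The underlying counts were 203, 283 and 203 reads in the GW0742 libraries and 58, 27 and 55 reads in the DMSO libraries. The ratio of means was 5.30, and the log2 difference, GW0742 minus DMSO, was 2.39 ± 0.21 (SE). PDE1B was chosen for this difference, with the rank of its p-value at 6 of all tested models (edgeR quasi-likelihood test, Benjamini-Hochberg adjusted p = 0.00384), so these values are a description and not a further test. Without any single library its log2 difference lay between 2.20 and 2.51.

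The second PDE1B model has the same protein name and could share reads with the first. It had 6.43, 6.17 and 6.46 CPM in the GW0742 libraries, against 1.19, 2.63 and 1.44 CPM in the DMSO libraries. Its groups did not overlap either, and DMSO replicate 2 stood nearest to the GW0742 libraries. The log2 difference was 1.88 ± 0.28 (edgeR adjusted p = 0.0437). This model too was selected on its difference, so its values and calls are a description and not a further test. That call was kept without DMSO replicate 2 (log2 2.27), and lost without GW0742 replicate 1 (edgeR adjusted p = 0.163), GW0742 replicate 2 (0.0732), GW0742 replicate 3 (0.0653), DMSO replicate 1 (0.180) or DMSO replicate 3 (0.159).

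Taken as 1 gene, PDE1B varied less among the control libraries than either of its models. The summed level was 22.0, 23.8 and 19.7 CPM in the GW0742 libraries, against 4.62, 4.65 and 4.73 CPM in the DMSO libraries. The coefficient of variation of the sum was 9.36% in GW0742 cells and 1.2% in DMSO cells. For the model with the symbol alone it was 14.1% in GW0742 cells and 26.6% in DMSO cells, and for the second model 2.54% in GW0742 cells and 43.9% in DMSO cells. The DMSO sums rest on 78, 62 and 79 reads, whose error of counting alone is larger than 1.2%, so no steadiness is read from that value. The same holds for the 2.54% of the second model, on 84, 99 and 99 reads in the GW0742 libraries. DMSO replicate 2 differed from the others in how the reads were divided and not in their sum: the model with the symbol took 43.5% of PDE1B reads there, 74.4% in DMSO replicate 1 and 69.6% in DMSO replicate 3. In the GW0742 libraries that share was 70.7%, 74.1% and 67.2%. Fitted as 1 row, PDE1B had a ratio of means of 4.67 and a log2 difference of 2.22 ± 0.12 (edgeR adjusted p = 0.000221, a description as above).

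**Figure D2:**
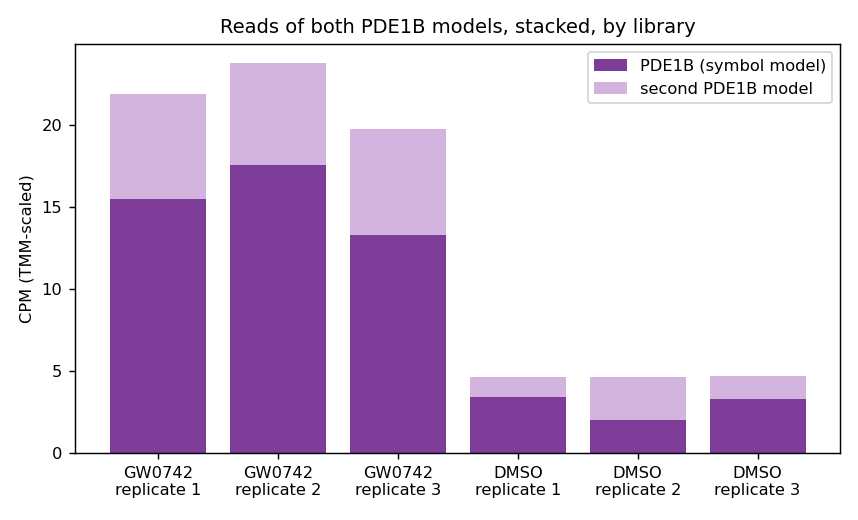
CPM of PDE1B (dark) and its second model (light), stacked, in each of the 3 GW0742 and 3 DMSO libraries. The stacks reach 19.7 to 23.8 CPM in GW0742 libraries and 4.62 to 4.73 CPM in DMSO libraries, and in DMSO replicate 2 the second model holds the larger part.

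PDE1C and PDE1A are the other calmodulin-dependent phosphodiesterases. PDE1C, which has high affinity for both nucleotides, had 79.0, 72.7 and 72.9 CPM in the GW0742 libraries, against 85.7, 86.4 and 87.4 CPM in the DMSO libraries. The groups did not overlap, with a log2 difference of -0.21 ± 0.06 that did not pass (edgeR adjusted p = 0.158). A further PDE1C model, ENSSSCG00000016669, had 28.3, 28.1 and 26.3 CPM in the GW0742 libraries, against 29.2, 29.9 and 30.7 CPM in the DMSO libraries (log2 difference -0.12 ± 0.08, edgeR adjusted p = 0.460). PDE1C remained the most abundant PDE1 enzyme in both groups. Per length, PDE1B stood at 8.97%, 11.1% and 8.30% of the PDE1C level in the GW0742 libraries, against 1.84%, 1.05% and 1.73% in the DMSO libraries.

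PDE1A, which prefers cyclic GMP, is split over a pair of models that differed in opposite directions. The model with the symbol had 1.45, 1.56 and 1.5 CPM in the GW0742 libraries, against 2.49, 2.18 and 2.40 CPM in the DMSO libraries. Its groups did not overlap, with GW0742 below (log2 difference -0.64 ± 0.21, edgeR adjusted p = 0.188). The second PDE1A model, ENSSSCG00000029344, had 1.22, 1.31 and 1.24 CPM in the GW0742 libraries, against 0.593, 0.825 and 0.599 CPM in the DMSO libraries. Its groups did not overlap either, with GW0742 above (log2 difference 0.91 ± 0.26, edgeR adjusted p = 0.152). Neither passed, and the difference between the models was not tested. Fitted as 1 row, PDE1A averaged 2.76 ± 0.0954 CPM in GW0742 cells and 3.03 ± 0.0493 CPM in DMSO cells (log2 difference -0.13 ± 0.18, edgeR adjusted p = 0.758). Per length, the PDE1B model with the symbol stood at 4.28 to 5.39 times the PDE1A model with the symbol in GW0742 libraries, and at 0.443 to 0.669 times in DMSO libraries.

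**Figure D3:**
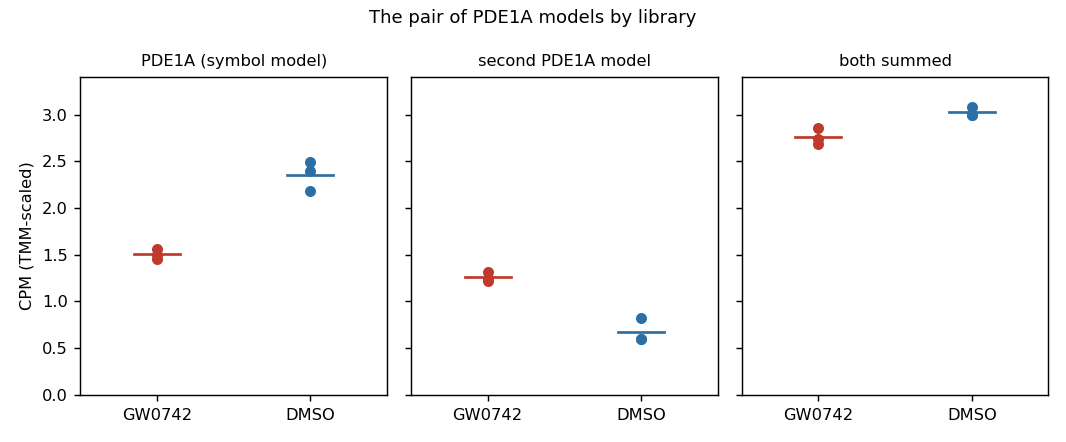
CPM of the PDE1A model with the symbol, of the second PDE1A model and of both summed, with 1 point per library and a line at the mean of the 3 libraries of GW0742 (red, left) and DMSO (blue, right). The first model is lower and the second higher in GW0742 libraries, and the sums lie close together, at 2.68 to 2.86 and 3.00 to 3.08 CPM.

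Added over all models of PDE1A, PDE1B and PDE1C, PDE1 reads came to 127 ± 5.19 CPM in GW0742 cells and 124 ± 1.63 CPM in DMSO cells. All 34 phosphodiesterase models together held 432 ± 3.48 CPM in GW0742 cells and 432 ± 9.86 CPM in DMSO cells. Of the reads, which are not scaled by length here, PDE1B made up 17.2% ± 1.32 of PDE1 reads in GW0742 cells and 3.76% ± 0.0107 in DMSO cells. The SD of this share in DMSO cells is also smaller than the error of counting.

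None of the 8 members other than the PDE1B models passed over all genes in edgeR, with adjusted p-values between 0.141 and 0.749. DESeq2 called none of them, and 4 had an unadjusted edgeR p under 0.05. Among all tested models 0.262% passed in edgeR in either direction (26 higher, which is 0.184%, and 11 lower, which is 0.0778%), 16.8% had an unadjusted p under 0.05, and 3.12% were called by DESeq2. In 5 of the 8 members all GW0742 libraries lay below all DMSO libraries, as in 12.1% of all tested models. The groups of 7 of the 10 members did not overlap in either direction, against 23.5% of all tested models. The members were chosen with this comparison known, so nothing is read from these counts. Their median log2 difference was -0.08 over the 10 and -0.32 over the 8, and 0.00 over all tested models.

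Outside the PDE1 group, PDE4D, PDE4B and PDE3A had all GW0742 libraries below all DMSO libraries. PDE4D, the model with the smallest adjusted p of the 8, had 9.41, 7.72 and 11.4 CPM in the GW0742 libraries, against 15.2, 13.8 and 13.1 CPM in the DMSO libraries. The log2 difference was -0.56 ± 0.16 (edgeR adjusted p = 0.141, and DESeq2 adjusted p = 0.0937). PDE4B, an enzyme of inflammatory cells, had 7.27, 9.59 and 5.16 CPM in the GW0742 libraries, against 11, 9.98 and 11 CPM in the DMSO libraries. The gap rested on a small margin, since GW0742 replicate 2 lay just under DMSO replicate 2 (log2 difference -0.54 ± 0.21, edgeR adjusted p = 0.249). PDE3A, which is inhibited by cyclic GMP and is the target of the heart drug milrinone, had 3.75, 2.55 and 3.46 CPM in the GW0742 libraries, against 4.15, 5.18 and 3.95 CPM in the DMSO libraries (log2 difference -0.44 ± 0.22, edgeR adjusted p = 0.347).

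PDE4B and PDE4D also have further models, and summing them made the groups of PDE4B overlap. Over its pair of models PDE4B had 9.26, 14.4 and 9.46 CPM in the GW0742 libraries, against 17, 12.4 and 14.5 CPM in the DMSO libraries (edgeR adjusted p = 0.348). PDE4D over 4 models had 12.5, 10.5 and 14.9 CPM in the GW0742 libraries, against 19.0, 16.0 and 16.2 CPM in the DMSO libraries, without overlap (log2 difference -0.44 ± 0.15, edgeR adjusted p = 0.191). One of these models, ENSSSCG00000030594, carries the protein name of the PDE4D4 isoform. It had 0.994, 0.872 and 0.914 CPM in the GW0742 libraries, against 0.652, 0.450 and 0.839 CPM in the DMSO libraries, higher with GW0742 in all libraries but not past the test (log2 difference 0.49 ± 0.30, edgeR adjusted p = 0.475).

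The last 3 members had overlapping groups in the model with the symbol. PDE8A, an enzyme of high affinity for cyclic AMP, had 94.4, 94.0 and 91.0 CPM in the GW0742 libraries, against 85.9, 86.8 and 91.0 CPM in the DMSO libraries (log2 difference 0.08 ± 0.06, edgeR adjusted p = 0.505). Summed with its second model, PDE8A had 119, 120 and 115 CPM in the GW0742 libraries, against 111, 109 and 114 CPM in the DMSO libraries, and the groups no longer overlapped (log2 difference 0.09 ± 0.06, edgeR adjusted p = 0.472). PDE5A, the target of sildenafil, had 48.3, 50.1 and 50.1 CPM in the GW0742 libraries, against 47.4, 44.3 and 50.3 CPM in the DMSO libraries (log2 difference 0.06 ± 0.07, edgeR adjusted p = 0.689). PDE7B rested on 8 to 22 reads per library, at 0.612, 1.37 and 1.11 CPM in the GW0742 libraries against 0.889, 0.975 and 0.779 CPM in the DMSO libraries. Its log2 difference of 0.25 ± 0.33 (edgeR adjusted p = 0.749) became -0.01 without GW0742 replicate 2.

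**Figure D4:**
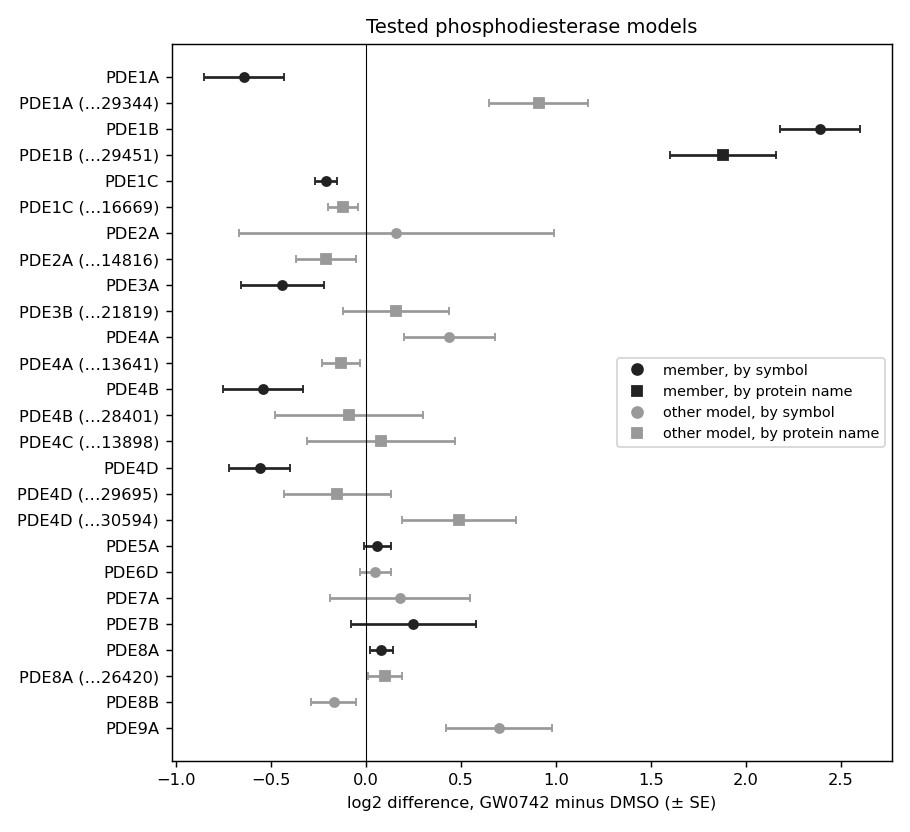
Log2 difference in level, GW0742 minus DMSO, with its SE from edgeR, of the 26 tested phosphodiesterase models (black: the 10 members, grey: others; circles: named by symbol, squares: by protein name, with the end of the identifier). Both PDE1B models stand at 1.88 and above, and the other 24 lie between -0.64 and 0.91.

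The deposited table holds 24 more models of phosphodiesterase genes, 10 with a symbol and 14 known by protein name. Of these 16 were deep enough to test. None passed in edgeR or DESeq2, 2 had an unadjusted edgeR p under 0.05, and 10 log2 differences were above 0 (49.7% of all tested models) and 6 below (50.3%). PDE9A, an enzyme specific for cyclic GMP, had 1.91, 3.61 and 2.35 CPM in the GW0742 libraries, against 1.48, 1.65 and 1.74 CPM in the DMSO libraries, without overlap (log2 difference 0.70 ± 0.28, edgeR adjusted p = 0.265). PDE6D, a chaperone of lipid-bearing proteins named for its link to the retinal enzyme, averaged 32.1 RPKM in GW0742 cells and 30.6 RPKM in DMSO cells, close to PDE8A. By their models with the symbol, PDE2A, PDE4A, PDE7A and PDE8B had log2 differences between -0.17 and 0.44 (edgeR adjusted p from 0.403 to 0.945). PDE2A and PDE4A each have a model with more reads, known by protein name, that lay below 0. These are ENSSSCG00000014816 for PDE2A (log2 difference -0.21 ± 0.16, edgeR adjusted p = 0.534) and ENSSSCG00000013641 for PDE4A (-0.13 ± 0.1, edgeR adjusted p = 0.548). The models with the symbols PDE3B, PDE6A, PDE6C and PDE10A were too shallow to test, with 0 to 18 reads over the 3 libraries of a group.

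Beyond the members, 1 of 73 tested genes in 6 lists of the cyclic nucleotide pathway passed in edgeR, and it rose. The lists include that of phosphodiesterases outside the members. The lists named 123 genes, of which 91 were found by symbol. At an unadjusted edgeR p under 0.05, 10 were higher and 12 lower, and DESeq2 called 4 higher and 3 lower. Over all tested models, in either direction, 0.262% passed in edgeR, 16.8% had an unadjusted p under 0.05 and DESeq2 called 3.12%. GEM, a small GTP-binding protein whose gene answers to cyclic AMP, had 23.9, 26 and 19.4 CPM in the GW0742 libraries, against 10.3, 12.5 and 11.6 CPM in the DMSO libraries. The groups did not overlap (log2 difference 1.01 ± 0.13, edgeR adjusted p = 0.0333). Its call was kept without GW0742 replicate 3, and lost without GW0742 replicate 1 (edgeR adjusted p = 0.148), GW0742 replicate 2 (0.0571), DMSO replicate 1 (0.166), DMSO replicate 2 (0.0538) or DMSO replicate 3 (0.115).

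Of 13 tested genes of CREB and its targets, the transcription factor of cyclic AMP signals and the genes it drives, GEM passed and 12 did not, with a list median of 0.09. JUNB stood at 190 ± 2.17 CPM in GW0742 cells and 151 ± 12.6 CPM in DMSO cells (log2 difference 0.34 ± 0.07, edgeR adjusted p = 0.0868). EGR1 had 15.1, 25.2 and 10.8 CPM in the GW0742 libraries, against 6.05, 7.80 and 6.71 CPM in the DMSO libraries (edgeR adjusted p = 0.0961), and passed without GW0742 replicate 3 (edgeR adjusted p = 0.0476). DESeq2 called both. FOS stood at 2.33 ± 1.29 CPM in GW0742 cells and 1.07 ± 0.218 CPM in DMSO cells (edgeR adjusted p = 0.216).

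None of 14 tested calmodulin-dependent genes passed in edgeR (list median -0.09), 10 of the 14 lay below 0, against 50.3% of all tested models, and 1 was higher and 6 lower at an unadjusted p under 0.05. The calcineurin inhibitor RCAN1 averaged 355 ± 10.6 CPM in GW0742 cells and 308 ± 11.2 CPM in DMSO cells (edgeR adjusted p = 0.139). PPP3CB, a catalytic subunit of calcineurin, averaged 49.4 ± 7.67 CPM in GW0742 cells and 65.0 ± 3.56 CPM in DMSO cells (edgeR adjusted p = 0.143). DESeq2 called both RCAN1 (adjusted p = 0.0389) and PPP3CB (adjusted p = 0.0416). CAMK2G, a calmodulin-dependent kinase, averaged 40.6 ± 2.11 CPM in GW0742 cells and 48.1 ± 2.31 CPM in DMSO cells (edgeR adjusted p = 0.164).

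Receptors and G proteins that turn cyclases on or off had 0 of 12 past the threshold in edgeR (list median -0.09, 2 lower at an unadjusted p under 0.05). PTH1R, through which parathyroid hormone and its relative act, stood at 16.3 ± 0.713 CPM in GW0742 cells and 25.9 ± 3.53 CPM in DMSO cells (log2 difference -0.67 ± 0.12, edgeR adjusted p = 0.0651). It passed without DMSO replicate 2 (edgeR adjusted p = 0.0430) and in DESeq2. The inhibitory subunit GNAI1 had 28.8, 16.4 and 37.6 CPM in the GW0742 libraries, against 43.3, 43.7 and 41.9 CPM in the DMSO libraries, and varied mainly within the GW0742 group (edgeR adjusted p = 0.231). GNAI3, a further inhibitory subunit, overlapped between the groups (edgeR adjusted p = 0.409).

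None of 13 tested cyclases passed in edgeR (list median 0.09, with 1 higher and 1 lower at an unadjusted p under 0.05). GUCY1B1, a subunit of the guanylyl cyclase that senses nitric oxide, averaged 30.7 ± 2.27 CPM in GW0742 cells and 26.3 ± 1.72 CPM in DMSO cells (edgeR adjusted p = 0.269), and the adenylyl cyclases ADCY1 and ADCY3 had log2 differences of -0.70 ± 0.30 and 0.13 ± 0.06 (edgeR adjusted p = 0.282 and 0.324). None of 15 kinase subunits, inhibitors and anchor proteins passed in edgeR (list median 0.08, with 2 higher and 2 lower at an unadjusted p under 0.05). PRKACA, the catalytic subunit of protein kinase A, averaged 52.5 ± 2.23 CPM in GW0742 cells and 63.3 ± 1.39 CPM in DMSO cells (edgeR adjusted p = 0.110). Its peptide inhibitor PKIA averaged 53.6 ± 7.12 CPM in GW0742 cells and 71.2 ± 2.90 CPM in DMSO cells (edgeR adjusted p = 0.111), and was called by DESeq2 (adjusted p = 0.0154). The anchor protein AKAP8 averaged 21.2 ± 2.16 CPM in GW0742 cells and 16.8 ± 0.320 CPM in DMSO cells (edgeR adjusted p = 0.162). The sixth list, phosphodiesterases outside the members, had 0 of 6 tested genes past the threshold, 1 higher at an unadjusted p under 0.05 and a median of 0.17.

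**Figure D5:**
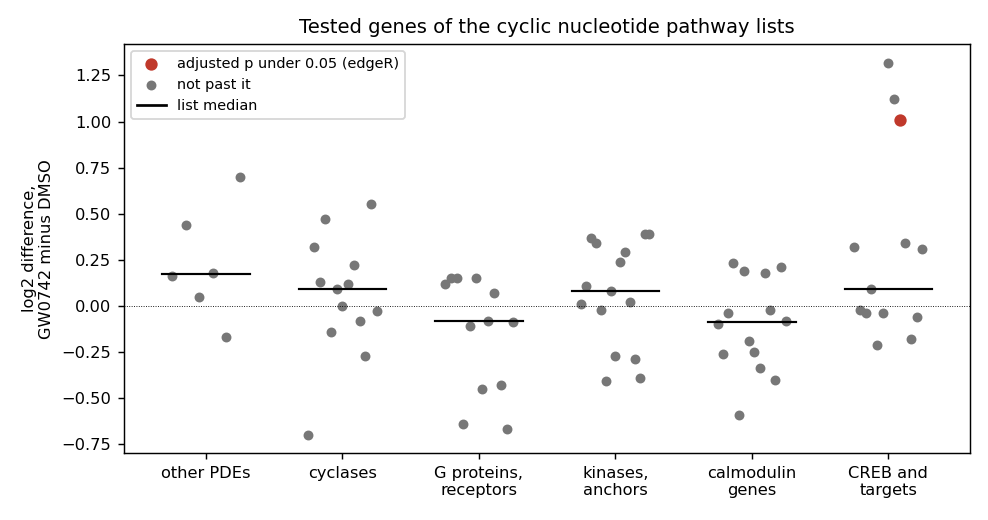
Log2 difference in level, GW0742 minus DMSO, of the 73 tested genes of 6 pathway lists, with 1 point per gene and a line at each list's median. GEM, in red, is the gene past an edgeR adjusted p of 0.05, and the medians lie between -0.09 and 0.17.

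Among 8468 models with a symbol and at least 1 CPM, those with a profile most like PDE1B over the 6 libraries (Pearson's r of log2 CPM, which here mostly reflects the gap between the groups) included TMTC4 (0.989), CFLAR (0.987), SRRT (0.986) and SLC7A7 (0.984). Their differences were much smaller than that of PDE1B. These 4 had log2 differences between 0.29 and 0.40 and did not pass in edgeR (adjusted p from 0.0776 to 0.129). After subtracting each group's mean, the closest were KHK (0.996), STAT2 (0.995), SLC5A6 (0.995), PTPA (0.995) and MOBKL3 (0.994). On the RPKM scale TMTC4, CFLAR, SRRT and SLC7A7 were again among the closest 5, and after the subtraction KHK and SLC5A6 were. These are the highest r of 8468 models over 6 libraries, so values near 1 can arise by selection alone, and nothing is read from them. PDE1B here is the model with the symbol, whose low value in DMSO replicate 2 was not seen in the sum of both PDE1B models. The established PPARD targets ANGPTL4, PDK4 and CPT1A had log2 differences of 3.14 ± 0.15, 4.05 ± 0.30 and 1.95 ± 0.14 (edgeR adjusted p = 0.000193, 0.00151 and 0.00151), on either side of that of PDE1B.

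PDE1B is also expressed by macrophages and neurons, and the PDE3 and PDE5 enzymes by smooth muscle, so markers of these cells were read beside it. In bulk libraries a change in the number of cells of a type and a change in RNA per cell cannot be told apart. Of 7 macrophage markers 5 were found and 2 were deep enough to test, and none of them passed in edgeR. The summed level of the 5 ran from 25.1 to 28.1 CPM in GW0742 libraries and from 21.8 to 26 CPM in DMSO libraries. Most of this sum was CD14, at 23.9 ± 1.89 CPM in GW0742 cells and 22.3 ± 2.43 CPM in DMSO cells. The leukocyte marker PTPRC had 8 reads over the GW0742 libraries and 9 over the DMSO libraries. Of 6 neuronal markers 4 were found, at a sum of 57.0 to 68.5 CPM in GW0742 libraries and 60.8 to 70.4 CPM in DMSO libraries, with SNAP25 at 8 and 7 reads. Most of the neuronal sum was TUBB3, at 52.6 ± 6.94 CPM in GW0742 cells and 56.1 ± 5.83 CPM in DMSO cells.

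The summed levels of smooth muscle and of endothelial markers stood apart between the groups, while MYH11, TAGLN and TIE1 overlapped when read singly. The 5 smooth muscle markers found of 7 summed to 6161 to 7812 CPM in GW0742 libraries and 8115 to 8551 CPM in DMSO libraries, 4 of 5 with log2 differences below 0. The 5 endothelial markers found of 8 summed to 35.5 to 66.5 CPM in GW0742 libraries and 25 to 30.0 CPM in DMSO libraries, all 5 with log2 differences above 0. Over all tested models 50.3% lay below 0 and 49.7% above. No marker of either list passed in edgeR, while at an unadjusted p under 0.05 all 5 endothelial markers were higher and 3 smooth muscle markers lower. DESeq2 called PECAM1 (adjusted p = 0.000214) and KDR (0.0156) higher, and ACTA2 (0.00562) and CNN1 (0.00114) lower. Of all tested models, in either direction, 16.8% had an unadjusted edgeR p under 0.05 and 3.12% were called by DESeq2. PECAM1 of endothelium had 28.2, 34.9 and 15.6 CPM in the GW0742 libraries, against 11.9, 12.2 and 11.1 CPM in the DMSO libraries. Within the GW0742 group it was highest and lowest in the same libraries as the PDE1B model with the symbol. Within the DMSO group PECAM1 differed little between libraries. It was highest in replicate 2, where that PDE1B model was lowest (2.03 CPM). The sum of both PDE1B models was not lowest there, at 4.62, 4.65 and 4.73 CPM in DMSO replicates 1, 2 and 3. The part of these markers in the PDE1B difference was not tested.

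Markers of the labelled cartilage cells were in part well above and in part close to 0, beside a high level of fibroblast collagen. Of 11 chondrocyte markers 9 were found, at a sum of 1879 to 2024 CPM in GW0742 libraries and 2322 to 2460 CPM in DMSO libraries. COL2A1 averaged 108 RPKM in GW0742 cells and 114 RPKM in DMSO cells, SOX9 8.98 RPKM in GW0742 cells and 9.89 RPKM in DMSO cells, and the fibroblast collagen COL1A2 6416 RPKM in GW0742 cells and 7108 RPKM in DMSO cells. ACAN averaged 75.7 RPKM in GW0742 cells and 105 RPKM in DMSO cells. COL11A1 averaged 126 RPKM in GW0742 cells and 150 RPKM in DMSO cells, and COMP 35.7 RPKM in GW0742 cells and 33.6 RPKM in DMSO cells. The remaining cartilage markers found were low. HAPLN1 averaged 1.75 RPKM in GW0742 cells and 2.09 RPKM in DMSO cells. MATN3 averaged 1.37 RPKM in GW0742 cells and 1.29 RPKM in DMSO cells, and COL9A1 0.380 RPKM in GW0742 cells and 0.576 RPKM in DMSO cells. MATN1 had 5 reads over the GW0742 libraries and 5 over the DMSO libraries. ACAN fell in edgeR (log2 difference -0.50 ± 0.06, adjusted p = 0.0185), and DESeq2 called COL11A1 lower as well (log2 difference in edgeR -0.28 ± 0.07, DESeq2 adjusted p = 0.00683). Of 8 tested chondrocyte markers 2 lay above 0, against 49.7% of all tested models. The fibroblast markers differed in direction and none passed in edgeR. COL1A2, COL3A1 and VIM had log2 differences of -0.17 ± 0.07, -0.07 ± 0.07 and -0.01 ± 0.06. DCN and LUM had 0.39 ± 0.13 and 0.65 ± 0.16, and DESeq2 called LUM higher (adjusted p = 0.00335).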

How the data were processed

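The deposited library tables list each gene model, per the file headers, with its estimated count and its RPKM value. Both were made by the authors, per library. The RPKM values deposited in the series table match those of the library tables. Reads were mapped to build Sscrofa 10.2, per the submitters' processing notes. Aligner, counter and annotation release were not given in the sources used here, and no step that marks strand is named, so reads of overlapping antisense genes cannot be separated. Estimated counts can be divided between models of 1 protein, so values of single models of PDE1A, PDE1B, PDE1C, PDE2A, PDE3B, PDE4A, PDE4B, PDE4D, PDE8A and PDE10A are uncertain.

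Symbols came from a gene name table that matched 11147 of 19670 models. Estimated counts were rounded to whole numbers, filtered with filterByExpr (minimum count 10), normalised by the TMM method and compared by edgeR's quasi-likelihood test (version 4.0.16, under R 4.3.3), GW0742 minus DMSO, with 3 libraries per group. Two-sided p-values were adjusted by Benjamini-Hochberg over all 14146 tested models, with a threshold of 0.05. SEs of log2 differences were taken as the absolute difference over the square root of F. A floor of 3 reads, or 0.178 to 0.229 CPM, covers the error of counting alone. Between libraries of a group, chi-square per degree of freedom lay between 4.3 and 16.0, and no pair could be 1 library deposited again.

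The members, the lists and the test were chosen with earlier results of these data known. Named are all members, all other phosphodiesterase genes found by symbol, the genes past the threshold and up to 3 others with the smallest adjusted p in each further pathway list, the 5 models most like PDE1B by each of 2 measures, and ANGPTL4, PDK4 and CPT1A. One gene that this rule names is not reported here. Further models and markers were named with their values known. The alternatives tried were size factors by median of ratios, DESeq2 1.42.0, no filter beyond 1 read, a block for the replicate number, each library left out in turn, limma 3.58.1 on log2(RPKM + 1) and log2(RPKM + 0.1), and summed PDE1B models. Summing all models of each phosphodiesterase gene was added after seeing the data. On simulated counts with known changes the fits were checked first.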

Additional observations from a re-analysis of the deposited data

How the results depend on the processing

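PDE1B kept its direction and its call in all 14 alternatives, with log2 differences between 1.62 and 2.51. Its largest adjusted p was 0.0479, in edgeR with the replicate block. Both fits with summed models hold the same PDE1B row. As PDE1B was chosen for this difference and the refits use the same libraries, this is a description and not further support. Over the 10 members, 128 of 138 values kept both their direction and their side of the threshold. The 9 calls lost were those of the second PDE1B model, and PDE7B ran from -0.01 (without GW0742 replicate 2) to 0.50 when 1 library was left out. Members called higher, 2 in the main analysis, numbered 1 without a filter, with the replicate block, in limma on log2(RPKM + 1) and on log2(RPKM + 0.1), and with PDE1B or all phosphodiesterase models summed, where the pair is 1 row by construction. Leaving out 1 library gave 1 to 2, with 0 lower. Over all models, 26 were higher and 11 lower. DESeq2 gave 207 and 234, no filter 13 and 3, the replicate block 10 and 0 and limma on log2(RPKM + 0.1) 17 and 4, and limma on log2(RPKM + 1) gave 3 lower. With single libraries left out, the counts ran from 6 to 54 (higher) and from 0 to 47 (lower). Among pathway genes, 1 higher became 4 in DESeq2, with 3 lower, and 0 without a filter, with the replicate block or in either limma fit. Over left-out libraries these ran from 0 to 3 and from 0 to 1. PDE2A, at 0.16, turned to -0.05 with the replicate block, -0.20 in limma on log2(RPKM + 0.1) and -0.18 with models summed, and ran from -0.26 to 0.71 over left-out libraries. PDE4A turned to -0.05 with models summed, and over left-out libraries PDE6D ran from 0.00 to 0.09 and PDE7A from -0.09 to 0.41. Deviations of same-numbered libraries had correlations of 0.0025, -0.0351 and -0.101, and the labels state no pairing, so the replicate block is not read as one. Correlations over all models cannot exclude a pairing that acts on few genes. The place of PDE1B among the members was the same on TMM-scaled counts per length. The causes were not tested. Depth limits PDE7B, at 8 to 22 reads per library, and PDE1A, at 19 to 42.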

Other observations

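By the gene order of RefSeq (assembly Sscrofa11.1, from which nothing else was taken), the neighbours of PDE1B within 3 places are GTSF1, NCKAP1L, PPP1R1A and TESPA1, besides a pair of genes not analysed here. GTSF1 had 9 reads over the GW0742 libraries and 12 over the DMSO libraries, NCKAP1L, an actin regulator of blood cells, 1 and 1, PPP1R1A, an inhibitor of protein phosphatase, 5 and 11, and TESPA1, a protein of T cell development, 7 and 14. None of these 4 was deep enough to test, against 689 reads over the GW0742 libraries and 140 over the DMSO libraries for the PDE1B model with the symbol.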
